A study of Arabidopsis thaliana with 10 samples.

Results

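Roots of the Arabidopsis thaliana mutant bts-3 were set against roots of wild type (WT, Col) when both lacked iron. Plants grew for 2 weeks on B5 medium and spent the last 3 days (72 h) on medium without iron (-Fe). The labels call the samples biological replicates, and 3 arrays of bts-3 -Fe roots and 2 arrays of WT -Fe roots were chosen by their titles, 5 of the series' 10 arrays. The other 5 arrays, 3 of bts-3 and 2 of WT moved to medium with iron (+Fe), share no array with them. The labels do not state the lesion in bts-3, and no single-gene probe set carries the name BTS, which leaves the genotype labels unchecked by its transcript. Of 28583 probe sets, the 16722 paired with exactly 1 gene were compared. Values are log2 intensities, and differences are log2 fold changes given as bts-3 minus WT.

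BRUTUS (BTS) is an E3 ubiquitin ligase that binds iron and limits the iron-deficiency response by promoting the breakdown of bHLH transcription factors of subgroup IVc. Those factors switch on other bHLH genes, IRON MAN peptides and, with FIT, the genes by which roots acquire iron. Iron-starved Arabidopsis roots acidify the soil, reduce ferric iron, import it and secrete coumarins that mobilise it.

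The bts-3 -Fe arrays did not form a tight group. Over all 28583 probe sets, replicate 1 correlated with the WT -Fe arrays at r = 0.984 and 0.981. Its correlations with bts-3 replicates 2 and 3 were 0.970 and 0.967. Replicate 2 also correlated more closely with WT replicate 2, at 0.984, than with bts-3 replicate 3, at 0.981. The first principal component of the single-gene probe sets held 48.2% of the variance. On it, bts-3 replicates 1, 2 and 3 lay at 34.27, -30.66 and -39.07, and WT replicates 1 and 2 at 32.02 and 3.45. The median residual SD was 0.276 on -Fe, 0.221 without bts-3 replicate 1, and 0.215 on +Fe. The main counts and list medians are therefore also given without bts-3 replicate 1, and without replicate 3 where it moves them.

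No single-gene probe set differed between bts-3 and WT on -Fe at an adjusted p under 0.05 (limma, 0 of 16722, or 0%; smallest adjusted p 0.977), and a plain linear model also gave 0. At an unadjusted p under 0.05 there were 693 probe sets (4.14%). Without bts-3 replicate 1 limma again gave 0, with a smallest adjusted p of 0.275 and 2066 probe sets (12.4%) at an unadjusted p under 0.05. Single-gene differences below are thus values, not calls, and the number of arrays limits their precision. On +Fe the same fit called 99 (0.592%): bts-3 exceeded WT at 52 (0.311%) and lay under it at 47 (0.281%). Leaving out a single +Fe array changed that count of 99 to 33 (bts-3 replicate 1), 290 (bts-3 replicate 2), 197 (bts-3 replicate 3), 1 (WT replicate 1) or 4 (WT replicate 2). With a WT array left out, WT is a single array assumed to vary like the bts-3 arrays, which alone give the spread.

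A difference of at least 1 on the log2 scale was measured upward in bts-3 -Fe roots at 69 probe sets and downward at 134. Without bts-3 replicate 1 those counts were 202 and 353, without replicate 2 they were 93 and 172, and without replicate 3 they were 70 and 64. Leaving out WT replicate 1 gave 108 and 141, and leaving out WT replicate 2 gave 166 and 384. Non-overlap, meaning that every bts-3 array lay on the same side of both WT arrays, put bts-3 above WT at 1363 probe sets (8.15%) and below at 1891 (11.3%). Those 2 shares are the background for the gene groups below. Without bts-3 replicate 1 they were 21.7% above (3629) and 25.2% below (4209), over 4 arrays in place of 5.

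The 12 non-overlapping genes with the highest values in bts-3 were AT3G01345, AT4G33720, AT5G52390, AT1G65500, AT5G39120, AT5G18380, AT3G15356, GSTF3, AT4G10530, AT4G39675, SRS3 and AT1G03620, from 4.31 to 1.48. AT3G01345 measured 8.02, 11.23 and 10.86 in bts-3 -Fe, against 6.88 and 4.58 in WT -Fe, a difference of 4.31 (SE 1.02). Its lowest bts-3 array is again replicate 1, and without it the difference was 5.32. AT4G33720 measured 4.62, 5.69 and 4.85 in bts-3 and 2.78 and 2.16 in WT (2.59, SE 0.36), and AT1G65500 measured 4.86, 5.91 and 5.10 in bts-3 and 3.17 and 3.48 in WT (1.97, SE 0.34). Non-overlap was the condition for naming all 12 genes, and a level filter asked for a higher group mean of at least 4.87. AT4G33720, AT1G65500, AT5G52390, AT3G15356, GSTF3, AT4G10530 and SRS3 passed that filter only through their bts-3 mean. GSTF3, a phi-class glutathione transferase, measured 5.64, 5.65 and 7.22 in bts-3 and 4.67 and 4.29 in WT (1.69, SE 0.48). SRS3, of the SHI-related family, measured 5.24, 5.88 and 6.64 in bts-3 and 4.28 and 4.49 in WT (1.53, SE 0.39).

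**Figure D1:**
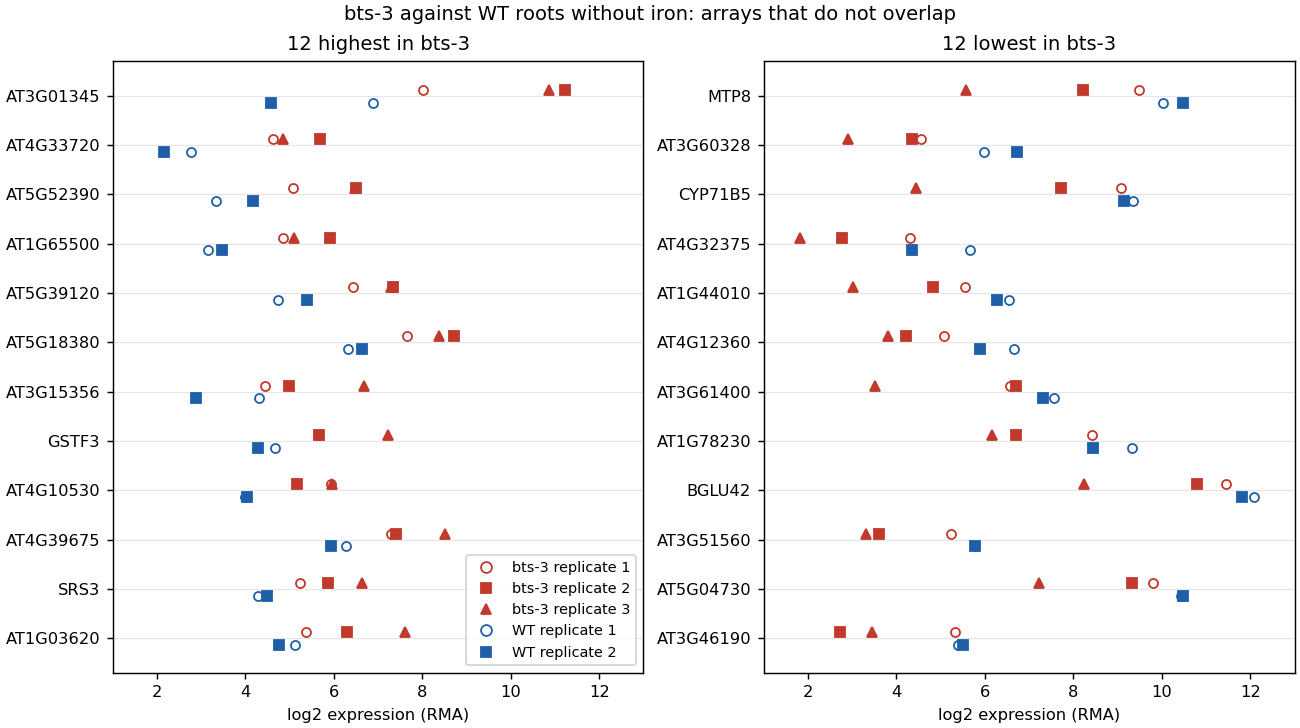
Log2 intensity on each -Fe array of the 12 genes with the highest and the 12 with the lowest bts-3 minus WT difference among non-overlapping genes, with bts-3 and WT arrays marked apart. The genes were chosen for this separation; for those lower in bts-3, replicate 1 lies nearest to WT at most genes, while MTP8 spans 9.48 to 5.56 over the bts-3 arrays.

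These genes were then read on the +Fe arrays, which played no part in choosing them. Of the 12 highest, 11 were also higher in bts-3 on +Fe, 9 of them without overlap (background on +Fe 13.4% higher and 15.9% lower), and 6 were called higher. AT3G01345 measured 10.34, 10.82 and 10.81 in bts-3 +Fe, against 3.91 and 3.59 in WT +Fe (6.91, limma adjusted p = 1.33e-05). AT1G65500 rose by 4.08 on +Fe (adjusted p = 0.00273), AT5G39120 by 3.49 (adjusted p = 0.00128), AT5G52390 by 3.29 (adjusted p = 0.00966), GSTF3 by 3.24 (adjusted p = 0.00128) and AT4G33720 by 2.60 (adjusted p = 0.0149), all by limma. AT4G10530 was the exception in sign, at 1.69 on -Fe and -0.30 on +Fe. The labels do not say whether plants of the same replicate number on the 2 media grew together. Deviations of same-numbered -Fe and +Fe arrays from their group means correlated at r = 0.30, 0.51 and 0.39 in bts-3 replicates 1, 2 and 3 and at -0.11 in WT, so the 2 media may not be independent readings.

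The 12 lowest were MTP8, AT3G60328, CYP71B5, AT4G32375, AT1G44010, AT4G12360, AT3G61400, AT1G78230, BGLU42, AT3G51560, AT5G04730 and AT3G46190, from -2.49 to -1.62. On +Fe 6 of them were higher and 6 lower in bts-3, 0 were called by limma, 5 were higher without overlap and 2 lower without overlap. MTP8, a vacuolar manganese and iron transporter, measured 9.48, 8.22 and 5.56 in bts-3 -Fe, against 10.01 and 10.47 in WT -Fe (-2.49, SE 0.98). On +Fe it measured 7.54, 7.07 and 5.37 in bts-3 and 4.59 and 4.50 in WT (2.12, limma adjusted p = 0.148), so the sign turned. CYP71B5, a cytochrome P450, measured 9.08, 7.72 and 4.44 in bts-3 -Fe and 9.35 and 9.15 in WT -Fe (-2.17, SE 1.15), with a +Fe difference of 3.31 (limma adjusted p = 0.0547). In both genes bts-3 replicate 3 lay far below the other arrays, and without it the differences were -1.39 for MTP8 and -0.84 for CYP71B5. AT4G12360 kept its sign, at -1.91 on -Fe and -1.26 on +Fe (limma adjusted p = 0.180). AT4G12360, AT3G60328, AT4G32375, AT1G44010, AT3G51560 and AT3G46190 passed the level filter only through their WT mean.

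Genes of the iron-deficiency response had negative differences once both genotypes lacked iron, but none passed the test and their size rested largely on bts-3 replicate 3. All 28 probe sets of 3 iron lists (uptake and coumarins, signalling, and 17 further loci) were negative, with 0 called by limma, 11 lower without overlap (39.3%, background 11.3%) and a median of -0.92, against -0.02 over all probe sets. Members of these lists other than BGLU42, BHLH101 and PYE were added after values were seen, so the counts describe chosen genes and support no direction. BGLU42, BHLH101 and PYE were also negative, with 1 of the 3 lower without overlap. Over the 28, the median was -1.42 without bts-3 replicate 1 (27 negative) and -0.46 without replicate 3 (25 negative). On +Fe 26 of the 28 were positive, 5 were called higher and the median was 1.5. The median SD of these probe sets was 1.35 over the 3 bts-3 -Fe arrays and 0.18 over the 2 WT -Fe arrays. Replicate 3 also had the lowest bts-3 mean on +Fe in each of the 3 lists (uptake and coumarins 9.24, 9.26 and 8.08 in replicates 1, 2 and 3). WT has no replicate 3, so spread from the genotype and an effect of that replicate cannot be told apart. On -Fe, replicate 1 of bts-3 lay below both WT arrays at 13 of the 28, replicate 2 at 26 and replicate 3 at 27. The shares over all probe sets were 35.5%, 40.0% and 38.7%.

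The coumarin and uptake list held 5 probe sets, all negative, 4 of them without overlap, with a median of -1.78. Its S8H, COSY and MTP8 probe sets were added after values were seen, and F6'H2 was added and then removed. The median was -2.43 without bts-3 replicate 1 and -0.44 without replicate 3. S8H, the scopoletin hydroxylase that makes fraxetin, measured 12.72, 11.82 and 8.14 in bts-3 -Fe, against 12.72 and 12.70 in WT -Fe (-1.82, SE 1.17). Replicate 1 was level with WT and replicate 3 far below, so its groups overlapped and the difference was -0.44 without replicate 3. On +Fe S8H rose by 4.27 in bts-3 (limma adjusted p = 0.00655). BGLU42, a beta-glucosidase that acts on coumarin glucosides, measured 11.45, 10.80 and 8.23 in bts-3 -Fe, against 12.08 and 11.81 in WT -Fe (-1.78, SE 0.84), and its difference on +Fe was 1.91 (limma adjusted p = 0.109). COSY, which closes the coumarin ring, was read by 2 probe sets at -0.83 (SE 0.40) and -0.76 (SE 0.33). Both of its probe sets separated the genotypes without overlap. Without replicate 3 the differences were -0.82 for BGLU42 and -0.41 and -0.44 for COSY.

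The 6 signalling members had a median of -0.47, and 1 of them, BTSL2, was lower without overlap. The median was -0.96 without bts-3 replicate 1, -0.08 without replicate 3, -0.31 without replicate 2 and -0.25 without WT replicate 2. BTSL1 and BTSL2 are ligases related to BTS; BTSL2 measured 10.51, 10.43 and 8.95 in bts-3 -Fe, against 10.83 and 10.53 in WT -Fe (-0.72, SE 0.47). BTSL1 measured 12.01, 11.60 and 10.59 in bts-3 -Fe and 12.07 and 11.98 in WT -Fe (-0.63, SE 0.40). BHLH101, a bHLH factor of subgroup Ib induced by iron shortage, stood at 8.04, 7.14 and 6.59 in bts-3 -Fe and 7.78 and 7.77 in WT -Fe (-0.51, SE 0.40), while on +Fe it rose by 3.71 in bts-3 (limma adjusted p = 0.0152). The peptide genes IMA1 (-0.42) and IMA2 (-0.41) and PYE (-0.12), a repressor of iron storage genes, lay within the spread of the arrays. Without replicate 3 the differences were -0.21 for BTSL2, -0.22 for BTSL1 and -0.18 for BHLH101. The signs of IMA1, IMA2 and PYE turned when single arrays were left out. Upstream bHLH regulators had a median of 0.09 over 5 probe sets, with 3 positive and 2 negative, and of -0.07 without bts-3 replicate 3 or WT replicate 2.

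**Figure D2:**
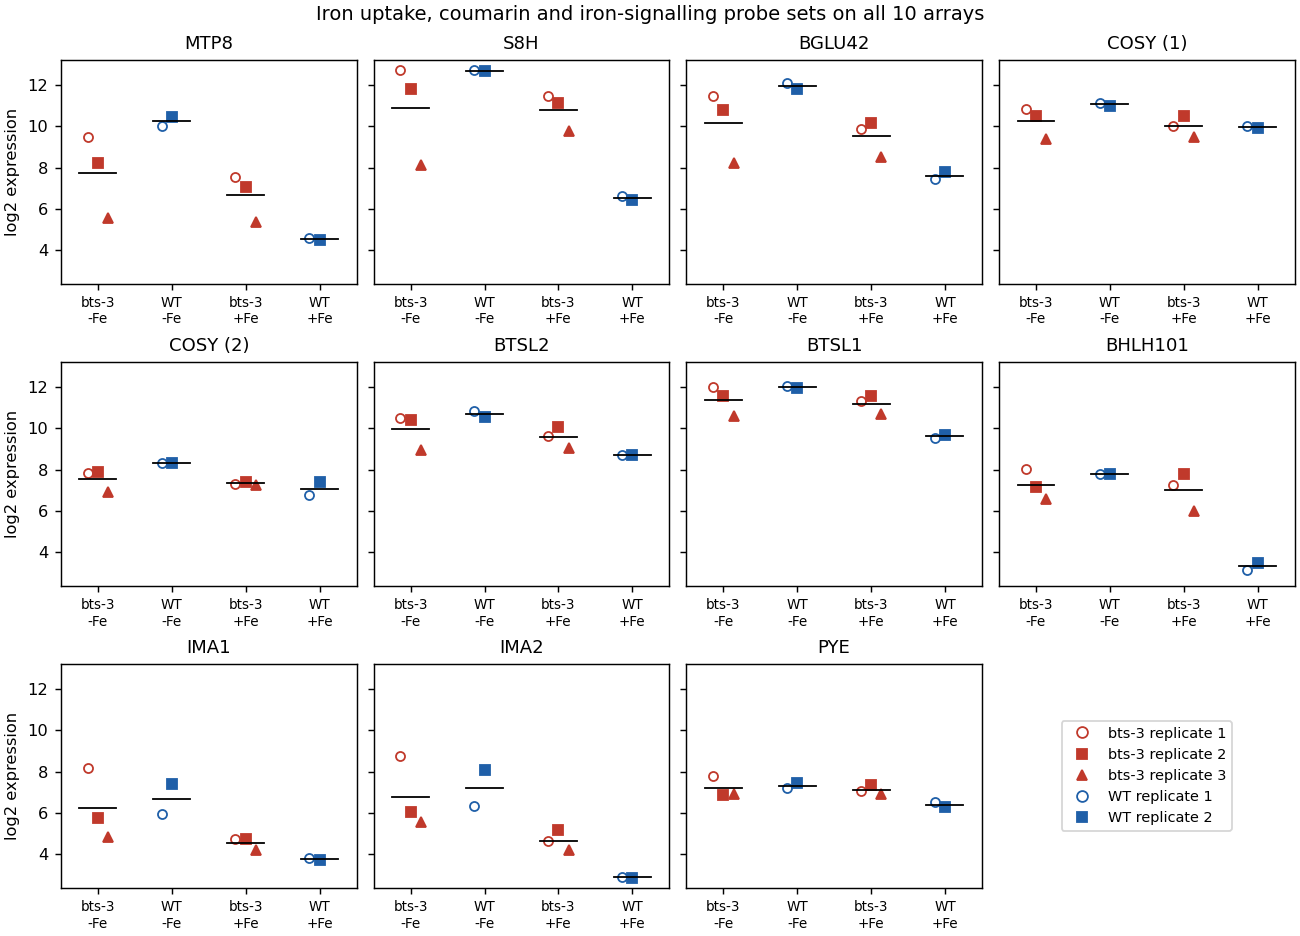
Log2 intensity of 11 iron-related probe sets in bts-3 -Fe, WT -Fe, bts-3 +Fe and WT +Fe, from left to right; circles, squares and triangles are replicates 1, 2 and 3 and black lines are group means. S8H spans 12.72 to 8.14 over the bts-3 -Fe arrays, while WT -Fe lies at 12.72 and 12.70.

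The 17 further loci were recalled from general knowledge as iron responsive, but listed after values were seen, so their counts describe chosen genes. All were negative, with a median of -1.22 and 6 lower without overlap (35.3%). That median was -1.88 without bts-3 replicate 1 and -0.51 without replicate 3. CYP71B5 and AT5G04730 belong both to them and to the 12 lowest. AT5G38820 measured 9.79, 9.79 and 6.99 in bts-3 -Fe, against 10.28 and 10.30 in WT -Fe (-1.44, SE 0.79), and AT3G07720 measured 10.14, 10.43 and 8.14 in bts-3 -Fe, against 10.87 and 10.70 in WT -Fe (-1.22, SE 0.63). As in the uptake list, replicate 3 was the lowest array, and without it the differences were -0.50 for AT5G38820 and -0.51 for AT3G07720. Zinc genes gave mixed values: bZIP23, a zinc-deficiency regulator, was at 0.77 (SE 0.24) without overlap, and the zinc transporter ZIP9 at -1.08 (SE 0.46) with overlap.

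Chloroplast-encoded transcripts had small positive differences in bts-3 -Fe roots. Of 63 probe sets 60 were positive, 38 were higher without overlap (60.3%, background 8.15%) and 1, rps14, was lower without overlap at -0.49; limma called 0, and 10 had an unadjusted p under 0.05. The median was 0.30, or 0.42 without bts-3 replicate 1 and 0.28 without replicate 3, and 0.17 on +Fe. Without replicate 1, 52 of the 63 were higher without overlap (82.5%, background 21.7%). The list's mean level was 10.32, 10.65 and 10.62 in bts-3 -Fe, against 10.21 and 10.19 in WT -Fe. The genes encode parts of photosystems, the NDH complex and plastid ribosomes. The NDH subunit gene ndhF measured 8.31, 8.45 and 8.43 in bts-3, against 7.76 and 7.66 in WT (0.69, SE 0.20), and ccsA, for cytochrome c maturation, 8.49, 9.03 and 8.80 in bts-3, against 7.98 and 8.17 in WT (0.70, SE 0.24). In these 2 genes all bts-3 arrays exceeded both WT arrays. The leaf genes RCA (0.41), LHCB4.1 (0.52) and LHCB4.2 (0.15) also had positive differences, and 0 of these 3 separated without overlap. Without bts-3 replicate 3 they were 0.34, 0.13 and -0.18. On +Fe 0 of these 3 leaf genes had a positive difference, and their median was -0.49. Their part in the plastid values was not tested. In whole roots, fewer cells of a type and less RNA per cell cannot be told apart.

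**Figure D3:**
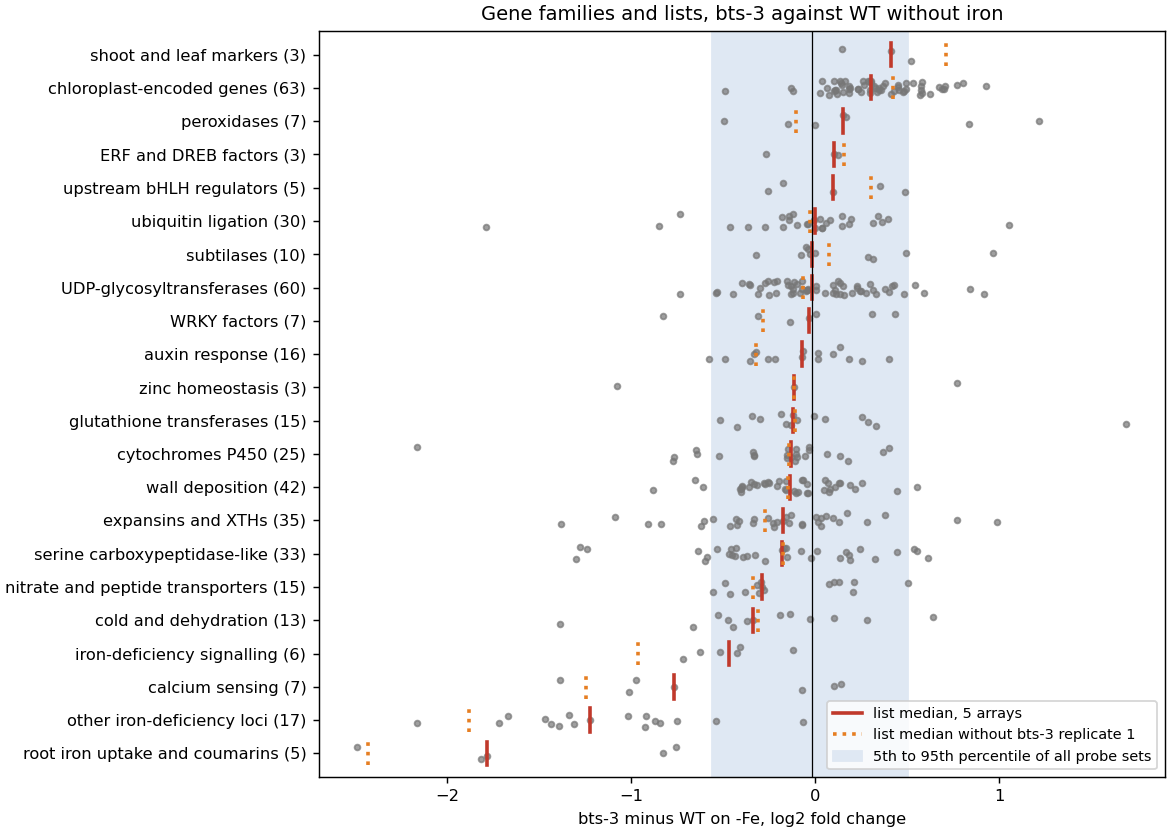
Log2 difference on -Fe (x axis), bts-3 minus WT, for every probe set of each list, with solid ticks for list medians, dotted ticks for the median without bts-3 replicate 1 and a band for the middle of all probe sets, from the 5th to the 95th percentile. The iron lists lie left of zero, at medians of -0.44, -0.08 and -0.51 once bts-3 replicate 3 is left out, and the chloroplast-encoded list, at a median of 0.30, lies right of it.

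Cold and dehydration genes tended to lower values: 10 of 13 probe sets were negative and 4 were lower without overlap (30.8%). Without bts-3 replicate 1, 11 were negative and 8 lower without overlap (61.5%, background 25.2%). The list median was -0.34 with all arrays and -0.19 without replicate 3. Replicate 1 of bts-3 lay below both WT arrays at 4 of the 13 and above both at 4 (30.8% each). Over all probe sets those shares were 35.5% and 31.6%. Replicates 2 and 3 lay below both WT arrays at 11 and 10 of the 13. COR15A, a chloroplast protein that protects membranes in the cold, measured 4.83, 4.39 and 4.38 in bts-3 -Fe, against 5.95 and 5.89 in WT -Fe (-1.39, SE 0.23). It also fell by 2.96 on +Fe (limma adjusted p = 0.00286), where it measured 5.26, 4.52 and 4.77 in bts-3 and 8.02 and 7.61 in WT. COR47, a dehydrin, had a difference of -0.66 on -Fe and -1.0 on +Fe (limma adjusted p = 0.160). Of the root markers sought (hair, endodermis, vascular tissue and root tip), only the hair-wall expansins EXPA7 and EXPA18 had a named single-gene probe set, so the root label was checked by these alone. EXPA7 measured 8.51, 7.95 and 8.18 in bts-3 -Fe, against 8.83 and 8.83 in WT -Fe, above the median level of 4.87 on every array. The differences of EXPA7 and EXPA18 were -0.62 and -0.56, and both genes separated without overlap; EXPA18 was at -0.22 without bts-3 replicate 3.

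The serine carboxypeptidase-like family includes acyltransferases of secondary metabolism. In it, 9 of 33 probe sets were lower without overlap (27.3%, background 11.3%) and 2 higher. Without bts-3 replicate 1 those counts were 10 (30.3%) and 5 (15.2%), near the background of 25.2% lower and 21.7% higher. Without replicate 3 they were 16 (48.5%) and 3 (9.09%), against a background of 16.1% lower and 11.8% higher. Without replicate 2 they were 11 (33.3%) and 4 (12.1%), against 17% and 13.3%. The size of the lower share thus depended on which array was left out. SCPL15 measured 7.60, 7.5 and 7.48 in bts-3 -Fe, against 8.70 and 8.84 in WT -Fe (-1.24, SE 0.21), and SCPL32 measured 6.53, 6.50 and 5.92 in bts-3 -Fe, against 7.46 and 7.73 in WT -Fe (-1.28, SE 0.27). Here replicate 1 stood with the other bts-3 arrays rather than with WT. On +Fe their differences were -1.12 and -1.49 (limma adjusted p = 0.0895 and 0.139). Peroxidases gave 2 genes higher without overlap of 7: PRX71 (AT5G64120), at 9.63, 9.57 and 10.15 in bts-3 -Fe and 8.96 and 8.17 in WT -Fe (1.22, SE 0.31), and Prx37 at 0.84 (SE 0.28). The peroxidase median was 0.15, but -0.10 without bts-3 replicate 1, when 5 of the 7 were negative, and it was -0.04 without WT replicate 1. Calcium sensors had a median of -0.77 over 7 probe sets, of which 0 separated the genotypes, but single arrays set it: it was 0.01 without WT replicate 1, -1.3 without WT replicate 2, -1.25 without bts-3 replicate 1 and -0.33 without bts-3 replicate 3. The medians of the other families lay between -0.29 and 0.10. Without bts-3 replicate 1 they reached -0.34 for nitrate and peptide transporters and 0.16 for ERF and DREB factors. In that setting the auxin response median went from -0.07 to -0.32 and the WRKY median from -0.04 to -0.28. Cytochromes P450 were negative at 20 of 25 probe sets, 4 of them without overlap (16.0%); ubiquitin ligation genes were higher without overlap at 6 of 30 (20%). Without bts-3 replicate 1 the P450 count was 6 (24.0%) and the ubiquitin count 7 (23.3%), near the background of 25.2% lower and 21.7% higher. Without replicate 3 they were 5 (20%) and 8 (26.7%), against 16.1% lower and 11.8% higher.

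The arrays with iron were then used the other way round. Among the 52 probe sets called higher in bts-3 on +Fe, 35 were also higher on -Fe, and 18 (34.6%) were higher without overlap, against 12% of all probe sets that were higher on +Fe. Their median was 0.43 on -Fe and 2.16 on +Fe, and the difference was smaller on -Fe at 51 of 52, and at 3873 of the 8192 probe sets higher on +Fe. Being chosen for a called difference on +Fe favours a smaller one on -Fe, so nothing is read from that comparison of sizes. Of the 47 called lower on +Fe, 39 were also lower on -Fe and 8 (17.0%) were lower without overlap, against 14.9% of all probe sets lower on +Fe. Their median was -0.33 on -Fe and -1.59 on +Fe. Without bts-3 -Fe replicate 1, 31 of the 52 (59.6%) and 34 of the 47 (72.3%) kept their sign, against 52.5% and 59.9% over all probe sets higher or lower on +Fe. In that setting 13 of the 52 lay in the opposite direction without overlap, against 1 with all arrays. Over the 8192 probe sets higher on +Fe, those counts were 1804 and 616. Without replicate 1, 23 of the 52 (44.2%) kept their direction without overlap, against 28.5% of the 8192. For those called lower on +Fe it was 11 of 47 (23.4%), against 28.2% of all probe sets lower on +Fe.

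**Figure D4:**
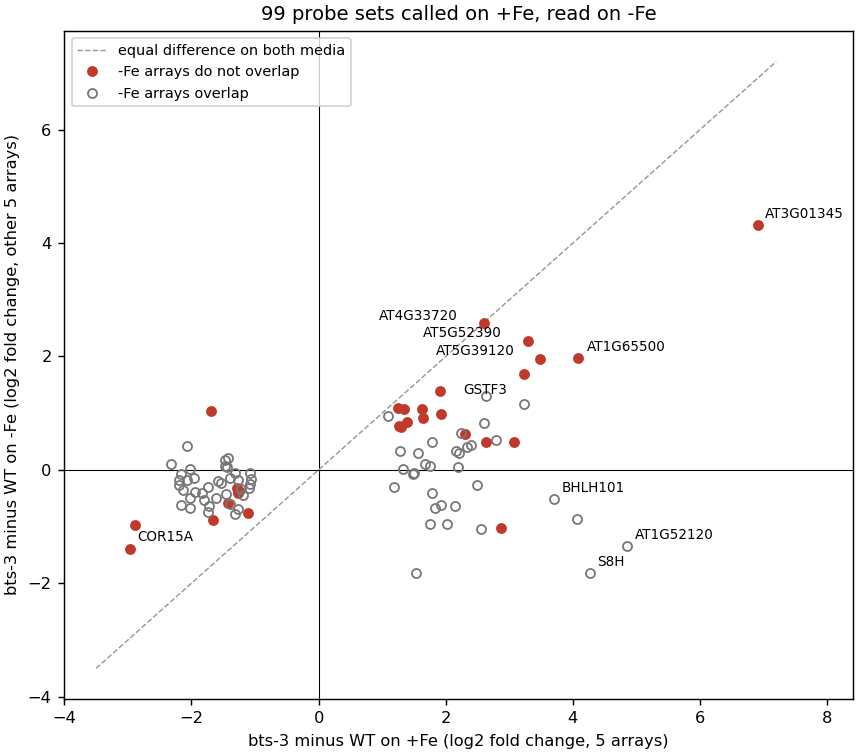
The 99 probe sets called on +Fe, with the bts-3 minus WT log2 difference on +Fe on the x axis and on -Fe on the y axis; filled points do not overlap on -Fe and the dashed line marks equal differences. Most points lie nearer to zero on -Fe, AT4G33720 lies on the line at 2.60 and 2.59, and S8H, BHLH101 and AT1G52120 are positive on +Fe and below zero on -Fe.

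Probe sets that separated the genotypes on both media in the same direction numbered 888 (5.31%), 394 higher and 494 lower, and 234 (1.40%) separated them in opposite directions. Without bts-3 replicate 1 the counts were 1531 (9.16%) and 812 (4.86%). With a difference of at least 1 on both media, 23 went the same way, 17 higher and 6 lower. That count was 48 without bts-3 replicate 1, 54 without replicate 2, 57 without WT replicate 1 and 50 without WT replicate 2. Among the higher were PRX71, AT4G16260 and ATG8B, an autophagy gene, which measured 6.59, 7.23 and 7.11 in bts-3 -Fe and 5.84 and 5.98 in WT -Fe (1.07, SE 0.26). AT4G16260 was tight, at 10.76, 10.75 and 10.89 in bts-3 -Fe and 9.89 and 9.56 in WT -Fe. The 6 lower were COR15A, SCPL15, SCPL32, AT4G12360, AT4G14650 and AT2G27402. The 10 opposite genes included 9 that were lower on -Fe and higher on +Fe, among them MTP8, BGLU42, CYP71B5 and APS3, an ATP sulfurylase, at -1.31 (SE 0.51) on -Fe and 1.1 on +Fe. Opposite genes numbered 2 without bts-3 replicate 3, 39 without replicate 1 and 29 without WT replicate 2, and APS3 was at -0.80 on -Fe without replicate 3.

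The interaction fit over all 10 arrays, which tests whether the genotype difference itself differs between media, called 1 probe set (0.00598%), and 758 (4.53%) had an unadjusted p under 0.05. The called gene, AT3G13840, had an interaction of 2.43 (SE 0.27, limma adjusted p = 0.0474) and a -Fe difference of 0.11. Without bts-3 -Fe replicate 1 the interaction fit called 3.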

How the data were processed

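Root RNA (100 ng) was hybridised to Affymetrix arrays. Per the submitters' processing notes, the authors made log2 values by RMA in Affymetrix Expression Console; no version is given in the sources used here. The deposited log2 values (0.713 to 14.1) were used as given. Of 28583 probe sets, 759 were paired with several genes and 11102 with none; the 16722 with 1 gene covered 16550 genes, and 16574 probe sets matched RefSeq. Groups were compared with limma 3.58.1 in R 4.3.3 (lmFit, eBayes, two-sided, Benjamini-Hochberg over 16722, threshold 0.05), for -Fe alone, +Fe alone and all 10 arrays. The fit was tried on simulated data for 5 arrays, with 200 of 16722 genes changed. It recovered 4.48% of changes of 1 on the log2 scale, 85.1% of 2 and 95.5% of 3, with 10 false calls. The simulated spread need not match that of these arrays.

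The genes named are the 12 highest and 12 lowest differences among non-overlapping probe sets whose higher mean reached the median level (4.87), and members of 23 gene lists. The genes and lists were chosen with earlier results of these data known. After values had been seen, the list of further iron loci was written, 7 loci (S8H, COSY, MTP8, BTSL1, BTSL2, IMA1 and IMA2) were named from general knowledge and added, F6'H2 was added and then removed, and planned lists were dropped, mostly for having few or no named members (endodermis, vascular and root tip markers had none), and single symbols excluded. No list was tested. Alternatives were other normalization, weights, priors, filters, a replicate block and leaving out arrays. Promoter sequences were not used here.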

Additional observations from a re-analysis of the deposited data

Results flagged for a closer look

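Several genes lay below WT on every bts-3 array without iron and above WT on every bts-3 array with iron. The -Fe difference minus the +Fe difference was -4.61 for MTP8 (limma interaction, adjusted p = 0.788), -5.47 for CYP71B5 (adjusted p = 0.788), -2.88 for AT1G44010 (adjusted p = 0.788), -3.32 for AT3G61400 (adjusted p = 0.915), -3.70 for BGLU42 (adjusted p = 0.825) and -1.59 for BTSL2 (adjusted p = 0.998). None of these 6 passed the interaction test. In each, bts-3 -Fe replicate 3 was the lowest -Fe array.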

How the results depend on the processing

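The count of 0 called on -Fe held under all 17 alternatives, with smallest adjusted p from 0.151 (replicate block) to 1 where it was recorded. In 3 of these fits an arm held 1 array, assumed to vary like the others. Same-numbered bts-3 and WT -Fe arrays deviated together at r = 0.31 and 0.26, but over only 2 pairs, so the numbers were not taken as pairing; the block left the -Fe count at 0. On +Fe the 99 calls became 578 with the replicate block, and ranged from 1 to 290 with 1 array left out: 33, 290 and 197 without bts-3 replicates 1, 2 and 3, and 1 and 4 without WT replicates 1 and 2. The interaction count of 1 became 17 with the replicate block and 3 without bts-3 -Fe replicate 1. The share of non-overlapping probe sets with the same sign on +Fe was 69.5% with all -Fe arrays, against 59.4% over all probe sets. Without bts-3 -Fe replicate 1 it was 60.5%, against 52.5% of all probe sets higher on +Fe and 59.9% of those lower. WT has no replicate 3, so on -Fe the replicate block gave the same differences as leaving out bts-3 replicate 3. The uptake median was -0.44 and MTP8 was at -1.39 in both settings. For differences and list medians these settings are thus 1 check, though the counts below include both. IMA2 turned to 0.21 in both and to 0.46 without WT replicate 2. IMA1 turned to 0.29 in both and to 0.31 without WT replicate 2. PYE turned to 0.020 in both, to 0.013 without WT replicate 2 and to 0.040 without bts-3 replicate 2. With 1 array left out, IMA2 ranged from -1.40 to 0.46, IMA1 from -1.38 to 0.31 and PYE from -0.42 to 0.040. The check covered 33 probe sets, not every gene named here, and in its remaining 320 comparisons with an alternative the sign held. For the 12 highest and 12 lowest genes, chosen for non-overlap, leaving out arrays could not turn the sign. For every probe set, the fit over all 10 arrays and the other priors kept the fold change by design. Those outcomes were fixed in advance and say nothing on stability. Causes were not tested. Of the list medians under alternatives, 204 stayed within the spread between arrays and 16 did not, but that spread is wide: without bts-3 replicate 3 the uptake median was -0.44, against -1.78 with all arrays, and without WT replicate 1 the calcium median was 0.01, against -0.77. Leaving out bts-3 replicates 1 and 3 together, blocking over 10 arrays, and list counts with each array left out were chosen after seeing the data.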
